A study of Mus musculus with 4 samples.

Results

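The mesenchyme of the mouse molar at P1 was compared here with that at E15.5, within the maxillary and within the mandibular jaw. Cells were taken as mesenchyme by a rule on the collagen genes Col1a1, Col1a2 and Col3a1, which had to hold at least 10 of every 10000 unique molecular identifiers (UMIs, tags that mark 1 captured RNA molecule) of a cell. The same cell had to have no UMI of Epcam, Cdh1, Ptprc or Pecam1, which mark epithelium, leukocytes and endothelium. The rule was applied to barcodes with at least 1000 UMIs and under 10% mitochondrial UMIs, and it found 22294 cells among the 56940 deposited barcodes. They were 5463 cells of the E15.5 maxillary molar, 9023 of the P1 maxillary molar, 3016 of the E15.5 mandibular molar and 4792 of the P1 mandibular molar.

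The study profiled developing teeth by droplet-based single-cell RNA sequencing to follow Wnt pathway genes. All 4 libraries came from untreated wild-type mice, whose genotype is given as WTB6 and whose strain is C57BL/6J in the study's methods. Embryonic organs are labelled E15, and the methods give that age as E15.5. Postnatal pups are labelled P1, and the methods give P0 or P1. Each library was a pool of 6 dissected molar tooth organs, and there was 1 library per stage and jaw. No test between stages was therefore run, and no p-value is given. The jaws are different tissues, so the second jaw is not a replicate of the first. Intervals are exact at 95% and cover counting error only, since nothing in these data measures the spread between animals or pools.

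Dental mesenchyme descends from the neural crest and surrounds and underlies the tooth epithelium. At the bell stage its inner part, the dental papilla, faces the epithelium, and its outer part, the follicle, lies next to the forming jaw bone. Around birth the papilla cells that touch the epithelium become odontoblasts, which secrete dentin, under exchange of Wnt, BMP, FGF and Hedgehog signals with the future ameloblasts. In neighbouring mesenchyme, osteoblasts form alveolar bone at the same time.

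In the maxillary jaw the mesenchyme cells held 57813305 UMIs at E15.5 and 69597176 at P1, with medians of 9917 and 4468 UMIs per cell. In the mandibular jaw they held 42379475 and 58517129 UMIs, with medians of 13344 and 11521 per cell. Values given below as pairs put E15.5 first and P1 second, and the maxillary pair before the mandibular pair. As a check of the label, 12 mesenchyme markers that the rule did not use, such as Prrx1, Pdgfra, Twist1, Dcn and Sparc, together held 9650 and 9029 CPM (UMIs scaled so that all mesenchyme UMIs of a library sum to 1000000), then 8580 and 11401 CPM. Near the threshold, cells with 10 to under 15 collagen UMIs per 10000 had 3611 and 5955 CPM of these markers, then 2594 and 4941 CPM. Cells just outside, with 5 to under 10, had 2334 and 3792 CPM, then 2070 and 3005 CPM. The 3 collagens chose the cells, so their levels are a description. Col1a1, of the main fibrillar collagen of dentin and bone, stood at 3818 and 3486 CPM, then 3864 and 6522 CPM. Col3a1, a collagen of soft connective tissue, stood at 3518 and 1703 CPM and at 4008 and 3181 CPM.

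Before any comparison, the P1 maxillary library has to be described as 2 sets of cells. The P1 libraries shared 7131 cell barcodes, whereas every other pair of libraries shared 28 to 70. A shared barcode had a median of 12088 UMIs in the P1 maxillary and 2870 in the P1 mandibular library, and 99.5% of them had more UMIs in the maxillary one. Shared barcodes were therefore removed from the P1 mandibular library and kept in the maxillary one. Of the 9023 maxillary mesenchyme cells at P1, 4092 had such a barcode (called shared-barcode cells below, with a median of 12330 UMIs and 55145258 UMIs in all), and 4931 did not (maxillary-only cells, with a median of 2615 UMIs and 14451918 UMIs in all).

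The maxillary-only cells did not resemble the rest of the P1 mesenchyme in their summed levels. Among genes with at least 50 CPM on either side, 67 of 3870 (1.73%) lay at least 2-fold apart between the maxillary-only cells and the E15.5 maxillary molar, and 513 of 4101 (12.5%) between them and the P1 mandibular molar. For the shared-barcode cells the shares were turned round, with 593 of 4167 genes (14.2%) apart from the E15.5 maxillary molar and 134 of 3919 (3.42%) apart from the P1 mandibular molar. The 356 maxillary-only cells with at least 5000 UMIs, taken alone, were 2-fold apart from E15.5 maxillary cells at 90 of 4003 genes (2.25%). Ddx3y, a gene of the Y chromosome, stood at 54.1 CPM in the E15.5 maxillary molar, 51.6 in the maxillary-only cells, 11.6 in the shared-barcode cells and 7.69 in the P1 mandibular molar. Haemoglobin genes, which mark red blood cells, summed to 11492 CPM in the E15.5 maxillary molar, 10306 in the maxillary-only cells and 1066 in the shared-barcode cells. The P1 mandibular molar, at 6029 CPM, lay between the maxillary-only and the shared-barcode cells. By the shares of genes 2-fold apart, the maxillary-only cells were nearer to the E15.5 maxillary molar than to the other P1 cells. Ddx3y was nearer too, but a Y gene depends on the sex mix of a pool. The 67 genes apart from the E15.5 maxillary molar included Pitx1 (62.8 CPM there and 7.82 in the maxillary-only cells) and Nrg1 (564 and 213 CPM). Whether the P1 label of the maxillary-only cells holds, and how they came into this library, was not tested. Values named "P1 maxillary" below are for the whole set of 9023 cells, and values for the shared-barcode cells alone are given for gene lists where the count of genes past the rule differs and for sums and genes whose levels or ratios are given where they differ by over 1.5 times.

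**Figure D1:**
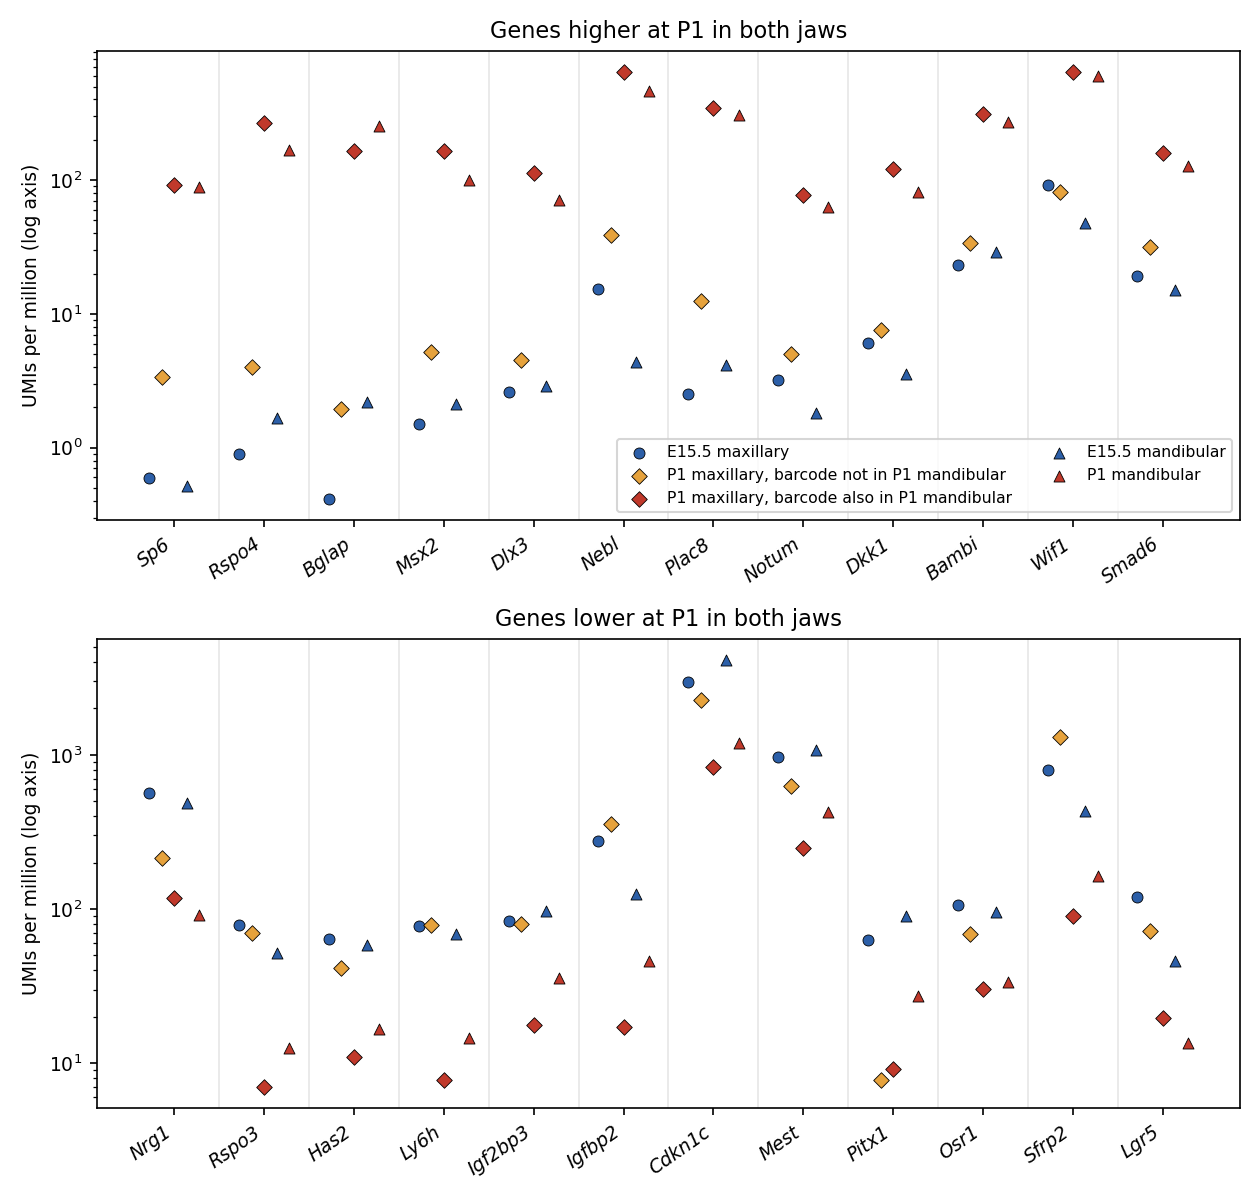
Levels of 24 named genes in mesenchyme cells, in CPM on a log axis, with 1 point per set of cells and the P1 maxillary library drawn as its 2 sets; no error bars are drawn, since a set is 1 sum. Sp6 stood at 91.8 CPM in the shared-barcode cells and 89.2 in the P1 mandibular molar, and at 3.39 in the maxillary-only cells.

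In each jaw 9732 genes were compared, those with at least 10 CPM at the higher stage of both jaws. A gene was counted as higher or lower at P1 where it differed at least 2-fold in the same direction in both jaws. By this rule 453 genes were higher at P1, which is 4.65% of those compared, and 164 were lower, which is 1.69%. These genes were chosen by the values that follow, so the values describe them and test nothing. Differences of over 4-fold in both jaws were found for 163 higher and 9 lower genes, and 33 genes were over 16-fold higher. Across 9731 genes the log2 ratios of the jaws had a Pearson correlation of 0.896, a description in which all genes share the same libraries. Most P1 maxillary UMIs lay in shared-barcode cells, whose jaw of origin was not tested, so the correlation does not show agreement of separate tissues. The correlation was 0.891 with the shared-barcode cells alone for P1 maxillary and 0.266 with the maxillary-only cells. With every library limited to cells under 5000 UMIs it was -0.06, with 42 genes higher and 41 lower, and with every library limited to cells from 5000 UMIs it was 0.902, with 507 and 235. With the shared-barcode cells alone for P1 maxillary, 506 of 9763 genes were higher (5.18%) and 237 lower (2.43%), among them 452 of the 453 and all 164. With the maxillary-only cells alone, 35 were higher and 16 lower. The median maxillary log2 ratio of the 453 genes was 1.99 in the shared-barcode cells and 0.26 in the maxillary-only cells, and that of the 164 genes was -1.99 and -0.23. Giving each cell the same weight, in place of each UMI, left 274 higher and 31 lower genes. In sums over cells, fewer cells of a type and less RNA per cell cannot be told apart.

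**Figure D2:**
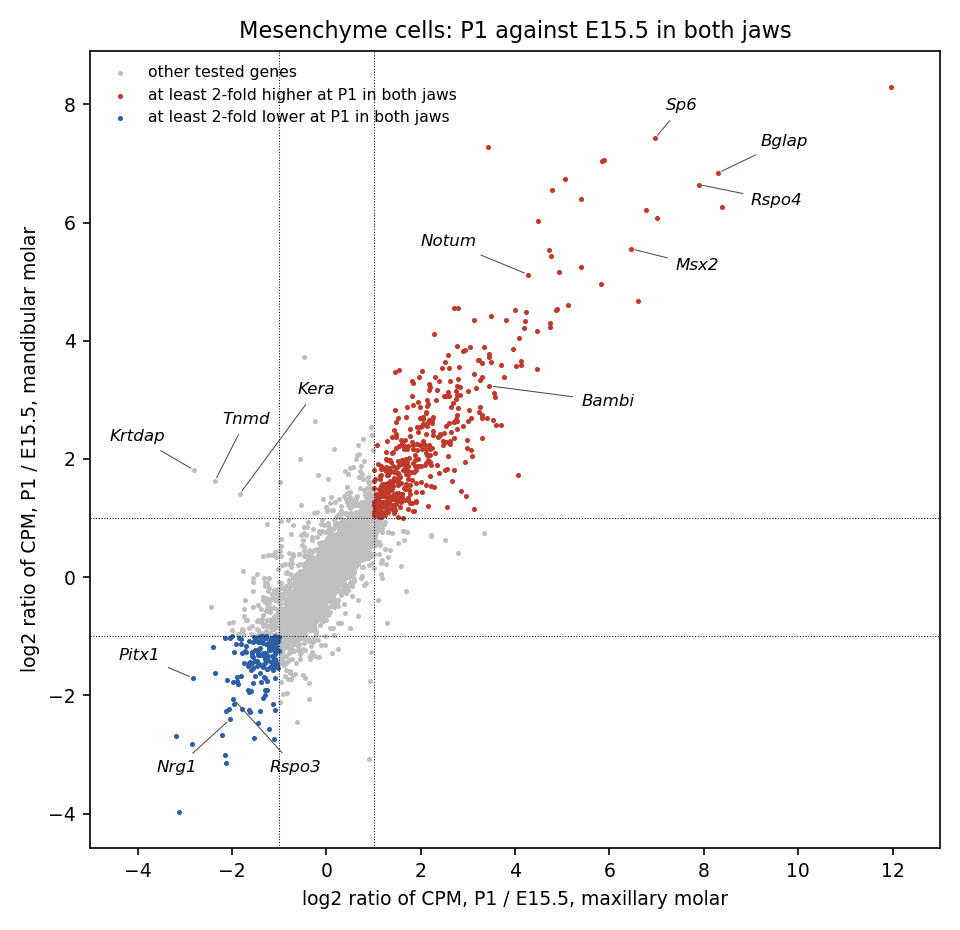
Log2 ratio of P1 to E15.5 levels in the maxillary molar (x axis) against the mandibular molar (y axis), with 1 point per gene compared and dotted lines at 2-fold. The 453 genes higher in both jaws (red) reach much larger ratios than the 164 lower ones (blue), and Kera, Krtdap and Tnmd lie in the quadrant of opposite directions.

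Transcription factor genes of the odontoblast and osteoblast programme were among the genes with the largest differences. Of 11 members compared in this list, 6 were higher at P1 and none lower in both jaws, with medians of 1.75 and 1.72 log2 in the maxillary and mandibular molar, against -0.02 and -0.03 over all genes compared. Among all genes compared, 4.65% were higher and 1.69% lower. Sp6, a zinc finger factor needed for normal tooth formation, stood at 0.588 CPM (34 UMIs) and 73.5 CPM (5112 UMIs), then 0.519 CPM (22 UMIs) and 89.2 CPM (5220 UMIs). Both P1 libraries were far above both E15.5 libraries, by 6.96 log2 (6.48 to 7.496) and 7.42 log2 (6.82 to 8.10). Sp6 lies at chr11:97013394-97024734 (mm10). Msx2, a homeobox gene of BMP-responsive mesenchyme, stood at 1.50 and 132 CPM in the maxillary and at 2.12 and 100.02 CPM in the mandibular molar, a difference of 6.46 log2 (6.15 to 6.78) and 5.56 log2 (5.26 to 5.87). Dlx3, a homeobox gene of mineralising tissues, stood at 2.61 and 90.7 CPM, then 2.9 and 70.6 CPM. Sp7 (osterix), which osteoblasts require, was higher by 2.34 and 1.89 log2. Runx2, the early master factor of this lineage, was not among them, at 549.9 and 352 CPM in the maxillary and 341 and 285 CPM in the mandibular molar. The maxillary median of this list was 1.91 log2 over 11 members with the shared-barcode cells alone. With the maxillary-only cells alone, shared barcodes being dropped from both P1 libraries, it was -0.14 log2 over 8 members. The 2 medians thus cover different genes. Sp6, Msx2 and Dlx3, under 10 CPM in the maxillary-only cells and at E15.5, were left out of the second, at 2.53, 1.79 and 0.78 log2. With the shared-barcode cells 6 of 11 were again higher, against 5.18% of all genes compared, and Sp6 stood at 91.8, Msx2 at 165 and Dlx3 at 113 CPM.

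Other homeobox and patterning genes included higher and lower ones. Among 18 factors of odontogenic mesenchyme, 1 was higher and 4 were lower at P1, against 4.65% and 1.69% over all genes compared, and the same was counted with the shared-barcode cells. Dlx2 was the higher one, at 22.1 and 49.6 CPM in the maxillary and 11.1 and 36.7 CPM in the mandibular molar. Pitx1, a factor of the jaw and hindlimb, stood at 62.8 and 8.88 CPM, then 89.8 and 27.5 CPM, which was lower by -2.82 log2 (-2.95 to -2.70) and -1.71 log2 (-1.79 to -1.62). In the maxillary-only cells Pitx1 stood at 7.82 CPM, so for this gene they were near the shared-barcode cells, at 9.16 CPM. Meox2 was lower by -1.78 (-2.72 in the shared-barcode cells) and -1.29 log2, Tfap2b by -1.73 and -1.25 and Prrx1, a general factor of limb and face mesenchyme, by -1.15 (-1.83 in the shared-barcode cells) and -1.05. Osr1, outside that list, stood at 106 and 38.3 CPM and at 95.6 and 33.5 CPM. Dlx4 and Sall3, a homeobox and a zinc finger factor gene, were on the other side. Dlx4 was higher by 5.82 and 4.96 log2 and Sall3 by 5.89 and 7.06 log2.

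Genes of dentin and bone matrix were higher at P1 in 10 of the 16 list members compared, with medians of 2.07 and 2.04 log2 in the maxillary and mandibular molar, and none was lower in both jaws. These counts and those that follow are set against 4.65% higher and 1.69% lower over all genes compared. This list holds Col1a1 and Col1a2, which the rule for choosing cells used and which did not pass; without them 10 of 14 were higher, with medians of 2.62 and 2.42 log2. Of 8 odontoblast markers 7 were higher, with medians of 4.62 and 4.10 log2. These markers share Sp6 and Dlx3 with the factors above and Dspp with the matrix list. The counts therefore overlap, and the lists were chosen with earlier results of these data known. Bglap, which codes for the bone and dentin protein osteocalcin, stood at 0.415 and 131 CPM in the maxillary and at 2.19 and 251 CPM in the mandibular molar. That is 8.30 log2 (7.72 to 8.94) and 6.84 log2 (6.55 to 7.15) higher, but the division of UMIs between Bglap and its near-identical neighbour Bglap2 is uncertain. Dspp, the precursor of the main non-collagen proteins of dentin, had 1 UMI in the E15.5 maxillary and none in the E15.5 mandibular cells, against 2906 (41.8 CPM) and 7233 UMIs (124 CPM) at P1. Both E15.5 libraries were thus at or below 1 UMI, and the mandibular log2 ratio was at least 10.77 against a limit of 3 counts. In the maxillary molar it was 11.24 with a counting interval of 8.76 to 16.54.

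Dmp1, another acidic matrix protein of odontoblasts and osteocytes, stood at 0.415 and 40.4 CPM, then 2.22 and 56.4 CPM. Smpd3, a sphingomyelinase needed for mineralisation, stood at 24.3 and 426 CPM, then 43.6 and 526 CPM. Phex, an endopeptidase of phosphate balance, was higher by 2.46 and 3.53 log2 and Alpl, the alkaline phosphatase of mineralising cells, by 1.52 and 1.97 log2. Not every bone gene passed the rule. Ibsp (bone sialoprotein) was 0.95 log2 higher in the maxillary and -1.26 log2 lower in the mandibular molar, from 61.1 to 118 and from 424 to 177 CPM. The mandibular ratio of Ibsp was -2.81 log2 with Scrublet doublets removed. It was 0.43 log2 without the cells marked by mineral matrix genes, a choice of cells that used Ibsp itself. Spp1 (osteopontin) also differed in sign, at 1.69 and -0.23 log2. With the shared-barcode cells alone the counts were again 10 of 16 and 7 of 8, against 5.18% higher over all genes compared.

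As examples of the matrix genes and of the Wnt antagonists described further on, the promoters of Bglap and Dkk1 were read from RefSeq (GRCm38.p6, which has the coordinates of mm10), each from 250 bases before to 50 after the start of the gene and written 5′ to 3′ on the strand of the gene. Capitals mark the letters ACCACA, the core that RUNX factors bind, searched on both strands. The Bglap promoter lies at chr3:88384417-88384716 on the minus strand and the Dkk1 promoter at chr19:30549447-30549746 on the minus strand.
Bglap: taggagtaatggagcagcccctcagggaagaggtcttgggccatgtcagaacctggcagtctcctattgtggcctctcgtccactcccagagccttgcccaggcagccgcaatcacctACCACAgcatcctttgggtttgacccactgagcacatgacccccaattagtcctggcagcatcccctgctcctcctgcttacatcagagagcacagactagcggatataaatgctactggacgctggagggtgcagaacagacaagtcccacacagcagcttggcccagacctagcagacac
Dkk1: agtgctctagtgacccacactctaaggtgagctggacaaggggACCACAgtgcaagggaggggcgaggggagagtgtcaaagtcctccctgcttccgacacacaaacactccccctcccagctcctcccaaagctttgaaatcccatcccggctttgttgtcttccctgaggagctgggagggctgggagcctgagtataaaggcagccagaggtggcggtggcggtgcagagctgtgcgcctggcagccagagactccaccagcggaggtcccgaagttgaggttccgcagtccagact
Each of these windows holds 1 match, and the windows of Msx2 and Rspo4 hold none. The core occurred in 16.8% of all 32851 promoters, in 11.2% of those of the genes compared, in 10.9% of 466 promoters of genes higher at P1 and in 8.16% of 147 promoters of genes lower at P1. The letters TAATTG, a core of MSX and DLX homeodomains that was also searched on both strands, occurred in 8.0%, 4.84%, 6.01% and 6.12% of the same sets. A match of letters is a description of the window and not a binding site.

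The counts in the Wnt lists are set against 4.65% higher and 1.69% lower over all genes compared, and against 5.18% and 2.43% with the shared-barcode cells alone. Of 7 Wnt ligand genes compared, 2 were higher at P1 and none lower, also with the shared-barcode cells. Wnt6 stood at 6.75 and 59.0 CPM in the maxillary and at 3.21 and 65.6 CPM in the mandibular molar, which was higher by 3.13 log2 (2.98 to 3.28) and 4.35 log2 (4.11 to 4.61). Wnt10a, whose loss disturbs tooth form in mice and people, stood at 4.13 and 30.7 CPM, then 2.29 and 32.5 CPM, or 2.89 log2 (2.70 to 3.09) and 3.83 log2 (3.53 to 4.14) higher. In the shared-barcode cells Wnt10a stood at 38.1 CPM and in the maxillary-only cells at 2.49 CPM, which is below the E15.5 level. After thinning every cell to 1000 UMIs, 2.0% of P1 mandibular and 0.17% of E15.5 mandibular mesenchyme cells had a UMI of Wnt10a. Among leukocytes, which should lack it, 0.23% and none did, at median depths of 7667 and 13530 UMIs before thinning. Wnt5a, the most abundant listed ligand in the P1 mandibular cells, stood at 137 and 139 CPM in the maxillary and 61.3 and 113 CPM in the mandibular molar and did not pass the rule.

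In the receptor and R-spondin arm of the pathway, which sets how much Wnt receptor stays on the membrane, 6 of 20 genes were higher and 3 lower at P1 (4.65% and 1.69% of all genes). The R-spondins themselves went opposite ways. Rspo4, a secreted amplifier of Wnt signals that nails and teeth use, stood at 0.899 CPM (52 UMIs) and 214 CPM (14889 UMIs) in the maxillary and at 1.68 CPM (71 UMIs) and 168 CPM (9803 UMIs) in the mandibular molar. This is 7.89 log2 (7.502 to 8.32) and 6.64 log2 (6.31 to 7.002) higher, with both P1 libraries far above both at E15.5. Rspo4 lies at chr2:151842927-151874668 (mm10). Rspo2 was higher by 3.08 and 2.05 log2, from 37.3 to 316 and from 41.5 to 172 CPM. Its mandibular ratio was 0.0059 log2 at a collagen minimum of 100 per 10000, so there it did not pass the rule. Rspo3 stood at 78.7 and 20.02 CPM, then 52.0 and 12.5 CPM, so it was lower by -1.97 log2 (-2.06 to -1.89) and -2.06 log2 (-2.18 to -1.94). In the shared-barcode cells Rspo3 stood at 7.04 CPM, a log2 ratio of -3.48, and in the maxillary-only cells at 69.5 CPM. The R-spondin receptors split in the same manner. Lgr6 was higher by 1.53 and 2.22 log2, and Lgr5 lower by -1.97 (-2.61 in the shared-barcode cells) and -1.77 log2. Of the Frizzled receptors, Fzd10 was higher by 1.84 and 2.92 log2 and Fzd4 lower by -1.19 and -1.10 log2. With the shared-barcode cells alone 6 were higher and 4 lower.

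Secreted Wnt antagonists were higher in 3 and lower in 1 of 13 members compared (4.65% and 1.69% of all genes). Dkk1, which blocks the Lrp co-receptors, stood at 6.07 and 97.2 CPM in the maxillary and 3.54 and 81.6 CPM in the mandibular molar, or 4.001 log2 (3.85 to 4.16) and 4.53 log2 (4.29 to 4.77) higher. Notum, an enzyme that removes the lipid of Wnt proteins, stood at 3.20 and 62.1 CPM, then 1.82 and 63.2 CPM. Wif1, which binds Wnt proteins outside the cell, stood at 91.2 and 525 CPM, then 47.6 and 596 CPM. Sfrp2, another secreted Wnt-binding protein, was the lower one, at 803 and 341 CPM, then 431 and 164 CPM. In the shared-barcode cells Sfrp2 stood at 90.4 CPM and in the maxillary-only cells at 1299 CPM, above its E15.5 level. With the shared-barcode cells alone 3 antagonists were higher and 2 lower. Sost, the antagonist of bone, had at most 1.13 CPM in any library and was not compared.

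Of 11 Wnt target and TCF/LEF genes, 2 were higher at P1 and none lower, against 4.65% and 1.69% of all genes. Tcf7, a DNA-binding partner of beta-catenin, was higher by 1.99 and 2.24 log2, at 14.5 and 57.9 CPM, then 11.3 and 53.4 CPM. Axin2, the common target and feedback gene, differed in sign, at -0.71 and 0.39 log2. Lef1 did too, at -0.54 and 1.22 log2. With the shared-barcode cells these counts were also 2 and 0.

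BMP signals drive odontoblast and bone differentiation. Of 10 BMP and TGF-beta ligand genes compared 3 were higher at P1, of which Bmp2 and Bmp7 are BMPs, and 1 was lower, with or without the maxillary-only cells. The shares over all genes compared were 4.65% higher and 1.69% lower, or 5.18% and 2.43% without the maxillary-only cells. Bmp2 stood at 16.7 and 164 CPM in the maxillary and at 15.3 and 103 CPM in the mandibular molar, which was 3.30 log2 (3.21 to 3.40) and 2.75 log2 (2.63 to 2.87) higher. Bmp7 and Tgfb1 were higher by 2.19 and 2.39 log2 in the maxillary molar and by 2.07 and 2.38 log2 in the mandibular molar. Inhba, the activin subunit of early tooth mesenchyme, was lower by -1.95 (-2.63 in the shared-barcode cells) and -1.26 log2. Bmp4 did not pass the rule, at 0.34 and 1.09 log2.

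Of 12 intracellular and secreted feedback genes of this pathway 6 were higher and none lower, with medians of 0.97 and 0.87 log2. Over all genes compared the shares were 4.65% and 1.69%, and the medians -0.02 and -0.03 log2. Bambi, a decoy receptor, stood at 23.4 and 255 CPM, then 28.9 and 272 CPM. Smad6, an inhibitory SMAD, stood at 19.3 and 132 CPM, then 15.2 and 128 CPM. Both were between 2.77 and 3.45 log2 higher in each jaw. Id1, an inhibitor of differentiation that BMP induces directly, was higher by 1.70 and 1.56 log2. In the shared-barcode cells the count was again 6 of 12, against 5.18% of all genes compared, with Bambi at 314 and Smad6 at 158 CPM.

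In the FGF, Hedgehog and Notch lists 1 of 15, 1 of 13 and 1 of 7 members were higher at P1, and 1 Hedgehog member was lower, against 4.65% higher and 1.69% lower over all genes compared. Of 15 FGF ligand and feedback genes, Fgf3, a papilla ligand to the epithelium, was the single one higher, at 1.30 and 54.5 CPM in the maxillary and 1.06 and 40.2 CPM in the mandibular molar. Its difference was 5.39 log2 (5.06 to 5.74) and 5.24 log2 (4.82 to 5.70). The shared-barcode cells alone counted 2 of 16. Ptch1, the Hedgehog receptor and a direct target of the pathway, stood at 187 and 662 CPM, then 121 and 569 CPM, whereas Gli1, another target, was higher by only 0.20 and 0.43 log2. The Hedgehog co-receptor gene Cdon was lower by -1.38 and -1.001 log2. Hey1, a Notch effector, was higher by 2.04 and 2.71 log2.

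Among genes of retinoic acid handling, Rdh10, which makes retinal, was higher by 2.77 and 2.501 log2. Aldh1a2, which makes retinoic acid from it, was lower by -1.81 (-2.68 in the shared-barcode cells) and -1.05 log2, and Rbp4, a retinol carrier, by -3.19 (-4.70) and -2.68 log2. That was 1 higher and 2 lower of 12 members, and 1 and 3 with the shared-barcode cells, against 4.65% and 1.69% of all genes compared, or 5.18% and 2.43% with those cells. Axon guidance genes, of which 27 were compared, included 4 higher and 2 lower ones (4 and 3 with the shared-barcode cells), to be read against the same shares. The netrin receptors Unc5b and Unc5c were higher by 2.71 and 2.79 log2 in the maxillary and by 2.63 and 2.86 log2 in the mandibular molar. Gdnf, a survival factor for neurons, was higher by 1.99 and 2.88 log2, at no more than 14.8 CPM. The Eph receptors Epha3 and Ephb2 were lower, by -1.12 and -1.32 log2 in the maxillary and -1.08 and -1.34 log2 in the mandibular molar, with Epha3 at -2.02 log2 in the shared-barcode cells. The mandibular ratio of Epha3 was -0.30 log2 at a collagen minimum of 100 per 10000.

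Several genes without a role in the lists were among the 15 with the largest differences. Nebl, an actin-binding protein of the nebulin family, stood at 15.3 and 513 CPM in the maxillary and at 4.34 and 463 CPM in the mandibular molar. Plac8 stood at 2.53 and 277 CPM, then 4.15 and 309 CPM, but 24.1% and 14.7% of P1 leukocytes also had a UMI of it after thinning. Sct, the precursor of the hormone secretin, stood at 0.588 and 75.3 CPM, then 1.34 and 90.9 CPM. The gene model Gm40193 had 1 UMI in the E15.5 maxillary cells and 16 in the E15.5 mandibular cells, against 69.3 and 119 CPM at P1. Scin, an actin-severing protein, was higher by 4.75 and 5.43 log2. The kinase gene Stk32a was higher by 4.87 and 4.53 log2.

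Matrix lists beyond the mineral programme are set against the 4.65% higher and 1.69% lower of all genes compared. Of 19 fibrillar and network collagens 1 was higher and 1 lower, and no member passed the rule among 17 elastic fibre genes or 17 matrix proteases and inhibitors. Lum and Omd were the 2 of 10 small leucine-rich proteoglycans, which bind collagen fibrils, that were higher (3 of 10 with the shared-barcode cells). Lum stood at 586 and 1397 CPM, then 377 and 1500.2 CPM, and Omd was at a level higher by 1.96 and 3.39 log2. Of 19 matricellular genes 3 were higher and 1 lower (4 and 1 with the shared-barcode cells). Vcan, a large proteoglycan of soft matrix, was higher by 1.51 and 1.02 log2, and Tnc, an adhesion-modulating glycoprotein, by 1.14 and 1.10 log2. Their mandibular ratios were 0.081 and 0.052 log2 at a collagen minimum of 100 per 10000. Has2, which makes hyaluronan, was lower, at 63.6 and 17.3 CPM, then 58.1 and 16.7 CPM, with 10.95 CPM in the shared-barcode cells. Ptn, a heparin-binding growth factor, was more abundant at P1 in each jaw, from 2014 to 4324 and from 2531 to 4502 CPM, and passed 2-fold in the maxillary jaw only. At a collagen minimum of 100 per 10000 its mandibular ratio turned to -0.12 log2.

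Genes lower at P1 numbered 164, and 9 of them differed by over 4-fold in both jaws. Among those with at least 50 CPM at the higher stage of each jaw, Nrg1, a ligand of ErbB receptors, had the largest difference by the smaller ratio of the jaws, with 564 CPM (32634 UMIs) and 137 CPM (9564 UMIs) in the maxillary and 487 CPM (20633 UMIs) and 92.0 CPM (5383 UMIs) in the mandibular molar. It was lower by -2.04 log2 (-2.07 to -2.01) and -2.40 log2 (-2.45 to -2.36), and stood at 118 CPM in the shared-barcode and 213 in the maxillary-only cells. Nrg1 lies at chr8:31814551-32884029 (mm10). Adgrb3, an adhesion receptor, and Tenm2, a teneurin, were lower by -1.64 and -1.60 log2 in the maxillary and -1.94 and -1.93 log2 in the mandibular molar, with Adgrb3 at -2.48 log2 in the shared-barcode cells. Ly6h was lower by -1.79 (-3.32 in the shared-barcode cells) and -2.22 log2, Fibin by -1.62 and -1.44 and Gas2 by -1.60 and -1.57.

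Imprinted genes, many of which control fetal growth, had no member higher at P1 in both jaws. Of 20 imprinted growth genes 6 were lower at P1, against 1.69% of all genes compared. A negative log2 ratio in both jaws was found for 19 of them and for 44.9% of all genes, and the list's medians were -0.93 and -1.07. Cdkn1c, an inhibitor of the cell cycle expressed from the maternal copy, stood at 2962 and 1134 CPM in the maxillary and at 4115 and 1198 CPM in the mandibular molar. Mest stood at 967 and 325 CPM, then 1073 and 427 CPM. Dlk1, a membrane relative of the Notch ligands, stood at 1164 and 371 CPM, then 2530.3 and 1204 CPM. At a collagen minimum of 100 per 10000 the log2 ratios of Dlk1 were -0.58 and -0.26. With the shared-barcode cells alone, 10 of 20 were lower (2.43% of all genes), and Cdkn1c, Mest and Dlk1 stood at 837, 247 and 293 CPM.

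The non-coding RNA H19, which is expressed from the maternal copy, was lower by -1.46 and -0.90 log2 and Igf2, the fetal insulin-like growth factor, by -1.44 and -0.46 log2, so that neither passed 2-fold in both jaws. Igf2bp1 and Igf2bp3, fetal RNA-binding proteins, were lower by -1.31 and -1.44 log2 in the maxillary and by -1.99 and -1.44 log2 in the mandibular molar. In the shared-barcode cells they stood at -2.11 and -2.23 log2. Of 11 insulin-like growth factor genes 3 were lower and 1 higher, with or without the maxillary-only cells. Over all genes compared 1.69% were lower and 4.65% higher, or 2.43% and 5.18% without the maxillary-only cells. Igf1 stood at 403 and 161 CPM, then 795 and 394 CPM. At a collagen minimum of 100 per 10000 its log2 ratios were -0.20 and -0.22, so there it did not pass the rule. Igfbp2, a binding protein, stood at 274 and 87.9 CPM, then 126 and 46.1 CPM, with 17.2 CPM in the shared-barcode and 358 in the maxillary-only cells. The proteases that free the ligand went opposite ways, with Pappa2 lower by -2.14 (-3.11 in the shared-barcode cells) and -3.01 log2 and Pappa higher by 1.87 and 1.99 log2.

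No cell cycle gene of the replication and mitosis lists passed the rule, where 1.69% of all genes were lower, but nearly all had negative log2 ratios. All 25 DNA replication genes were negative in both jaws, against 44.9% of all genes compared, with medians of -0.69 and -0.79 (2 were lower with the shared-barcode cells, where 2.43% of all genes were). Of 28 mitosis genes 27 were negative in both jaws, with medians of -0.42 and -0.43. Pcna, the sliding clamp of replication, stood at 93.7 and 64.1 CPM in the maxillary and at 92.6 and 62.2 CPM in the mandibular molar. Top2a, which untangles chromosomes, stood at 208 and 147 CPM, then 198 and 144 CPM. Cells with at least 5 mitosis UMIs per 10000 made up 25.5% of E15.5 and 18.4% of P1 maxillary cells, and 25.6% and 19.99% of mandibular cells. The share was 15.7% in the shared-barcode cells. This cut takes fewer UMIs in a shallower cell. In cells from 5000 UMIs the shares were 24.8% and 18.0%, then 24.5% and 18.3%. Under 5000 UMIs they were 31.0% and 18.9%, then 36.1% and 33.0%. The part of depth was not tested.

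**Figure D3:**
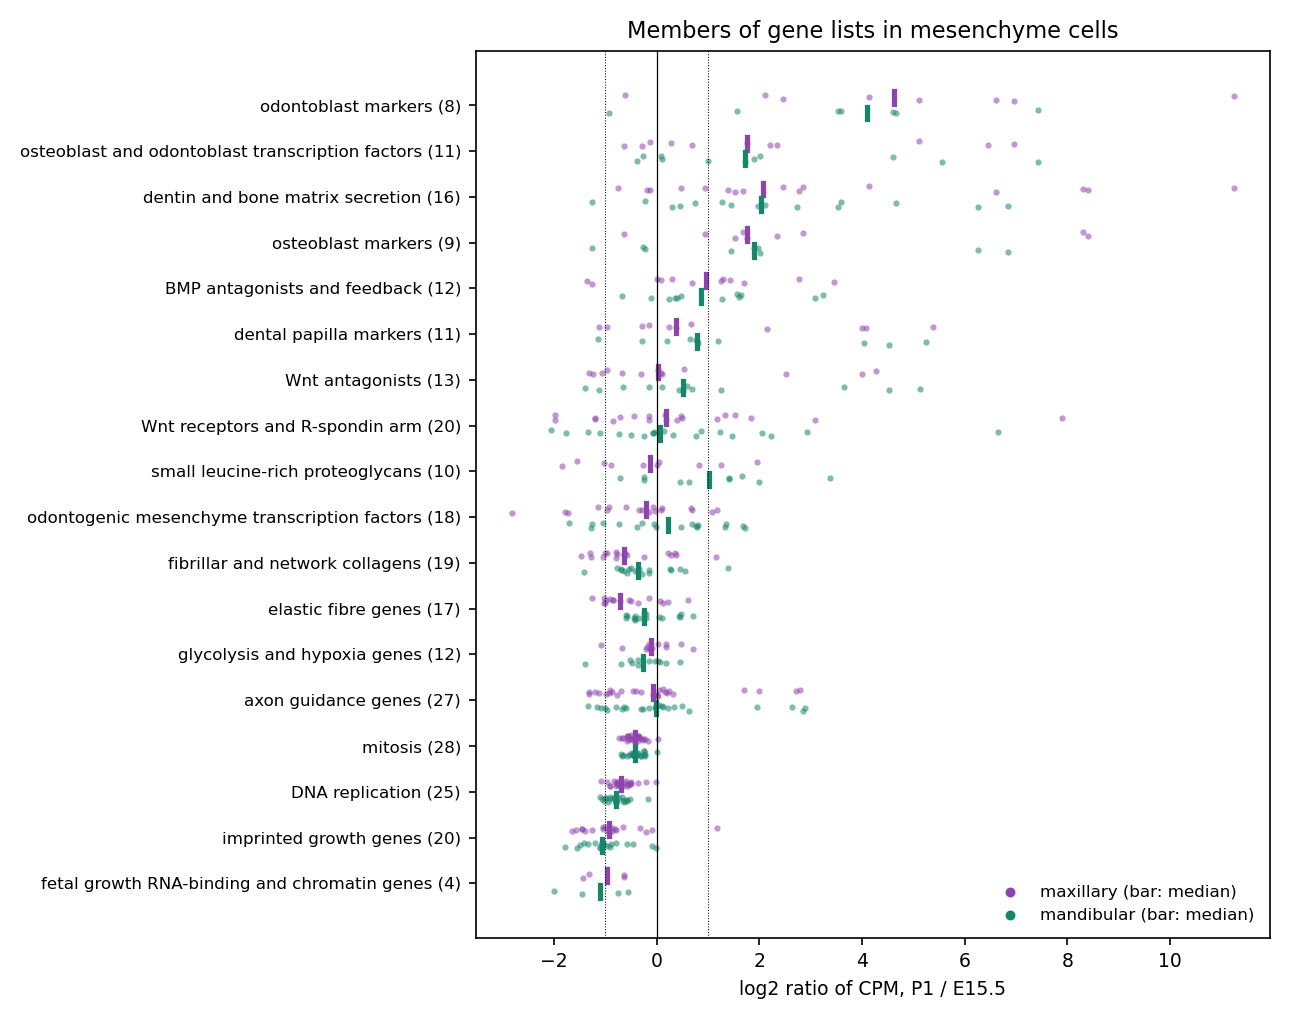
Log2 ratios of P1 to E15.5 for the members of 18 gene lists, 1 point per gene compared and jaw, with a bar at the median, the number of genes compared in brackets and dotted lines at 2-fold. Odontoblast markers have medians of 4.62 and 4.10, and DNA replication genes lie together at medians of -0.69 and -0.79.

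Shares of marked cells inside the mesenchyme differed between the stages in part. Papilla-marked cells had at least 5 UMIs of Msx1, Lhx6, Lhx8 and Barx1 per 10000. They made up 53.9% (52.6 to 55.3) of E15.5 and 53.3% of all P1 maxillary cells. The share was 81.4% in the shared-barcode cells and 30.0% in the maxillary-only cells. In the mandibular molar papilla-marked cells made up 22.9% (21.4 to 24.5) at E15.5 and 42.3% (40.9 to 43.7) at P1. Cells with at least 5 UMIs per 10000 of the 8 genes Dspp, Dmp1, Ibsp, Bglap, Bglap2, Mepe, Ifitm5 and Sp7 made up 2.23% (1.86 to 2.66) of E15.5 and 6.90% (6.39 to 7.45) of P1 maxillary cells, and 12.7% of the shared-barcode cells. In the mandibular molar the shares were 3.78% (3.13 to 4.52) and 12.1% (11.2 to 13.1). Dspp, Dmp1, Bglap and Sp7 of these genes passed the rule as higher at P1, so this share is not separate from those results. A share by a fixed cut cannot tell more cells of a type from more RNA per cell. The part of dissection and of depth per cell in these shares was not tested. For a gene higher at P1, the median share of its P1 UMIs in papilla-marked cells was 78.4% in the maxillary and 62.5% in the mandibular molar. For a gene lower at P1 it was 52.5% and 22.4%. Papilla-marked cells held 71.2% and 48.0% of all P1 mesenchyme UMIs, and cells of the 8 mineral genes 13.9% and 15.7%. Single genes differed in where their UMIs lay. Cells of the 8 mineral genes held 3.06% and 4.21% of the P1 UMIs of Rspo4, and 47.4% and 66.1% of those of Dkk1. Without the cells of these 8 genes, 407 genes were higher and 111 lower at P1. In papilla-marked cells alone, 544 were higher and 403 lower.

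**Figure D4:**
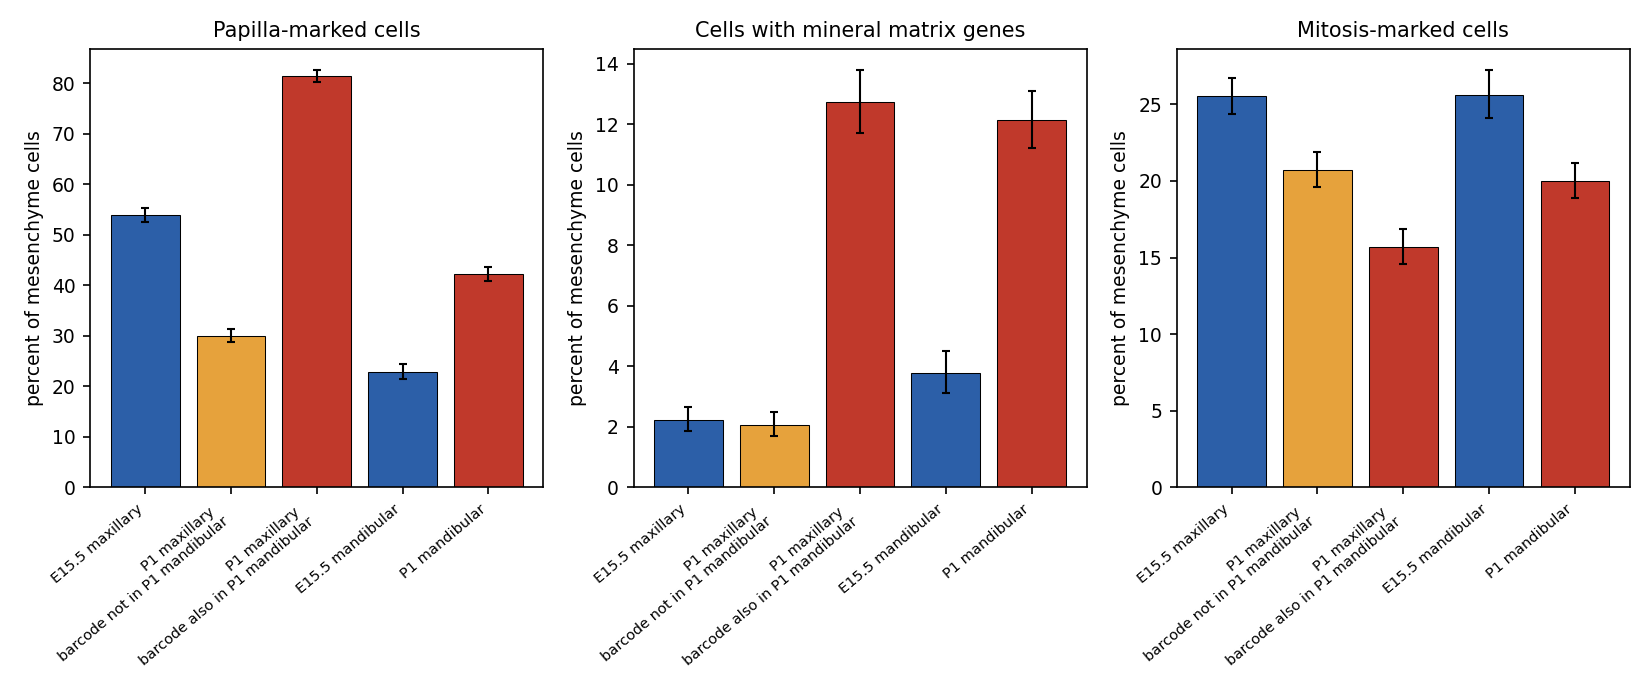
Share of mesenchyme cells, in percent, with papilla marks, mineral matrix genes or mitosis genes, in 5 sets of cells; error bars are exact 95% binomial intervals that cover counting error only. The maxillary-only cells (orange) have 2.07% cells with mineral matrix genes, near the 2.23% of the E15.5 maxillary molar, while the shared-barcode cells have 12.7%.

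Markers of other cell types differed between the stages in part, and those of red blood cells were abundant at E15.5. Of 10 erythroid genes in the annotation, 5 were compared and 3 were lower at P1, against 1.69% of all genes compared. The list summed to 11510 and 2993 CPM in the maxillary and 13289 and 6044 CPM in the mandibular molar, with Hbb-bs the most abundant in every library. Hbb-bs and Hbb-bt are near-identical, so their separate values are uncertain, and the embryonic globins Hbb-y, Hbb-bh1 and Hba-x each had no UMI in at least 1 library. The erythroid sum was 1071 CPM in the shared-barcode cells. When mitochondrial, ribosomal and haemoglobin genes were left out of the totals, 495 genes were higher and 183 lower.

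Of 8 ameloblast and enamel genes 3 were compared and all 3 were higher at P1, against 4.65% of all genes compared. They were the enamel protein genes Amelx and Ambn and the factor Sp6, counted above among the odontoblast genes. The list summed to 5.43 and 161 CPM in the maxillary and 3.78 and 384 CPM in the mandibular molar, although no cell had a UMI of Epcam or Cdh1. Amelx stood at 2.58 and 27.7 CPM, then 1.13 and 177 CPM, and after thinning 14.9% of P1 mandibular mesenchyme cells had a UMI of it beside 19.1% of leukocytes, which is a background level. In the same library 6.72% of mesenchyme cells and 0.92% of leukocytes had a UMI of Ambn (ameloblastin), and 6.91% and 1.61% one of Sp6, which odontoblasts also express. Amtn, Enam, Klk4 and Mmp20 each had no UMI in at least 1 library. All 13 epithelium markers summed to 87.7 and 62.9 CPM, then 15.6 and 92.4 CPM, with Krt17 the most abundant in the last library.

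Muscle markers summed to 138 and 56.1 CPM in the maxillary and 228 and 471 CPM in the mandibular molar, where Acta1 was the most abundant at P1, and Myog and Actc1 were lower in both jaws. None of 13 leukocyte markers reached the level for comparison. They summed to 37.2 and 21.3 CPM (13.1 in the shared-barcode cells), then 26.6 and 101 CPM, S100a9 being the most abundant in the P1 mandibular one. Endothelium markers summed to between 26.5 and 42.8 CPM, and none passed the rule (1 was higher with the shared-barcode cells). Glia markers summed to 144 and 105 CPM (67.7 in the shared-barcode and 247 in the maxillary-only cells), then 137 and 101 CPM. Of 6 chondrocyte markers compared, Col9a2 and Hapln1 were higher and Col2a1 and Acan lower (Acan by -1.50 log2 in the maxillary molar and -2.36 in the shared-barcode cells), and Col2a1 was higher in the maxillary molar instead, by 0.32 log2, when each cell weighed the same. Of the 6, 2 were higher and 4 lower with the shared-barcode cells. Over all genes compared, 4.65% were higher and 1.69% lower, and 5.18% and 2.43% with the shared-barcode cells. Col2a1 stood at 3.16 CPM in the shared-barcode and 65.3 CPM in the maxillary-only cells. Cells with at least 20 UMIs per 10000 of another type's markers (500 for erythroid ones) numbered 474 and 728 in the maxillary molar, then 317 and 595, or 8.68% and 8.07%, then 10.5% and 12.4% of the mesenchyme. Without them 471 genes were higher and 194 lower.

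The pools also differed in sex-linked genes. The Y genes Ddx3y, Eif2s3y and Kdm5d were lower at P1 by -1.44, -1.13 and -1.09 log2 in the maxillary and by -2.47, -2.14 and -2.25 log2 in the mandibular molar, and Xist was higher by 0.89 and 0.94 log2. Ddx3y was lower by -2.22 log2 in the shared-barcode cells, with which 4 of the 5 sex-linked genes were lower, against 2.43% of all genes compared. Each library is 1 pool, so the sex mix of a pool and its stage cannot be told apart.

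The same comparison was made in epithelium, taken as cells with at least 2 UMIs of Epcam and Cdh1, none of Ptprc or Pecam1 and under the collagen minimum, and numbering 570 and 2117 in the maxillary jaw, then 90 and 1329. Of the genes higher at P1 in mesenchyme, 321 of 418 with a value had a positive log2 ratio in maxillary epithelium and 224 of 372 in mandibular epithelium. Over all genes compared, 5573 of 9666 and 4332 of 9416 were positive. Of the genes lower in mesenchyme, 55 of 158 and 20 of 130 were positive in epithelium. With shared barcodes alone in the P1 maxillary epithelium, 282 of 417 higher, 24 of 147 lower and 4969 of 9629 of all genes were positive. Genes differed in this respect. Dlx3 was higher in epithelium by 2.83 and 2.58 log2, and Bambi by 4.11 and 1.57 log2. Notum was lower there by -2.08 and -1.17 log2, at 5.92 CPM or less, and Rspo4 stood at no more than 3.51 CPM in epithelium of any library.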

How the data were processed

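Per the labels and the study's methods, the authors made droplet 3′ libraries from 4 pools of 6 tooth organs and deposited, per library, raw UMI counts per gene and barcode from Cell Ranger 7.0.1 (build mm10, with its packaged annotation of 32285 genes). The deposited counts are whole numbers with no normalization. The libraries hold 109723360 (maxillary, E15.5), 128812956 (maxillary, P1), 86659227 (mandibular, E15.5) and 139873101 (mandibular, P1) UMIs, the order of the lists that follow. PCR duplicates are collapsed by UMI. Gene coordinates are GENCODE's for GRCm38 (32158 of 32285 genes matched).

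Barcodes with at least 1000 UMIs and under 10% mitochondrial UMIs numbered 9679, 16486, 6582 and 16014, and 6597 of the last, shared with P1 maxillary, were removed. UMIs of the mesenchyme cells were summed per library, scaled to CPM and compared as log2 ratios without a pseudocount. Ratio intervals are exact binomial and level intervals exact Poisson, both at 95%. A library at 0 was set to a floor of 3 counts, which makes the ratio a bound. Doublets were not removed in the values above. Scrublet (scanpy 1.11.5) at its automatic threshold marked at most 1 barcode per library and so did not work, and removal at 0.8% per 1000 barcodes was tried as an alternative. Leukocytes, used for background shares, had a UMI of Ptprc and none of the epithelial or endothelial genes, and numbered 388, 357, 240 and 435 with medians of 9985.5, 3048, 13530 and 7667 UMIs. Thinning drew 1000 UMIs from each cell.

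Named genes are the 15 with the largest change in each direction at 50 CPM, ranked by the smaller jaw ratio, up to 4 members per direction of each of 48 gene lists (the 2 most abundant where none passed), genes of opposite direction, and the genes of the cell rule. Other list members given as values, Runx2, Spp1, Axin2, Bmp4, Gli1, Wnt5a, Sost, H19, Igf2, Phex, Alpl and Xist among them, were chosen after their values were seen. The members, lists and rules were chosen with earlier results of these data known. The 21 alternatives changed 1 choice each, and 3 of them were chosen after the data were seen. Python 3.11.15, numpy 2.4.6, scipy 1.17.1, pandas 2.3.3 and matplotlib 3.10.9 were used, and the code was tested on simulated data.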

Additional observations from a re-analysis of the deposited data

Results flagged for a closer look

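Of the genes compared, 3 differed at least 2-fold in opposite directions in the jaws, and the difference between the jaws was not tested. Tnmd, which codes for tenomodulin, a membrane protein of tendon and ligament cells, stood at 57.4 and 11.1 CPM in the maxillary and at 96.5 and 297 CPM in the mandibular molar, with log2 ratios of -2.36 and 1.62. Kera, a leucine-rich proteoglycan of cornea and tendon, stood at 37.9 and 10.6 CPM, then 28.8 and 76.2 CPM, with log2 ratios of -1.84 and 1.40. Krtdap, a keratinocyte protein, stood at 10.5 and 1.51 CPM, then 3.42 and 12.0 CPM, with log2 ratios of -2.80 and 1.81. In the shared-barcode cells Tnmd stood at 8.47, Kera at 4.93 and Krtdap at 1.23 CPM, and in the maxillary-only cells at 21.4, 32.2 and 2.56 CPM. What tissue each dissection took along was not tested.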

How the results depend on the processing

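Counts of genes higher and lower at P1 in both jaws, 453 and 164, went to 914 and 360 at a minimum of 1 CPM and to 206 and 62 at 50 CPM. A threshold of 1.5-fold gave 778 and 528, and one of 4-fold gave 163 and 9. They became 274 and 31 when each cell weighed the same and 274 and 39 when each cell was thinned to 1000 UMIs. With shared barcodes dropped from both P1 libraries, which leaves only the maxillary-only cells for P1 maxillary, they were 35 and 16. A collagen minimum of 30 per 10000 gave 96 lower genes, and one of 100 gave 292 higher and 107 lower. At 100, 195 of the 292 were among the 453 and only 27 of the 107 among the 164. Papilla-marked cells alone gave 403 lower genes and cells without papilla marks 18, both chosen after the data were seen. The other alternatives left both counts within 1.5 times. The cause of these moves was not tested, beyond what each alternative's construction shows.

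Sign turns are given for named genes that passed the rule in both jaws, and genes that fell below 2-fold without a turn are not listed. Maxillary log2 ratios turned with shared barcodes dropped from both P1 libraries for Rdh10 (-0.074), Igfbp2 (0.38), Wnt10a (-0.73), Prrx1 (0.14), Dlx2 (-0.83), Sfrp2 (0.69), Tnc (-0.0778), Fzd10 (-0.66), Kcnj8 (-0.15), Hbb-bt (0.0096), Fgf3 (-0.0588), Zbtb16 (0.60), Unc5b (-0.36), S100b (0.12), Wif1 (-0.15), Ndufa4l2 (0.67), Tcf7 (-0.15), Igf2bp1 (0.0853), Ptch1 (-0.35), Hapln1 (-0.19), Gdnf (-0.30), Ly6h (0.0151), Col2a1 (0.56), Alcam (0.30) and Epha3 (0.35). Equal weight of cells turned the log2 ratio of Ndufa4l2, maxillary, to 0.0093 and that of Col2a1, maxillary, to 0.32, and thinning turned maxillary Col2a1 (0.68). A collagen minimum of 30 turned mandibular Acan (0.0641). One of 100 turned maxillary Myog (0.34), Fzd10 (-1.02), Acan (0.0851), Vcan (-0.0398) and Col2a1 (0.10), and mandibular Acan (1.59) and Col2a1 (1.63). Leaving out cells with other types' markers turned mandibular Acan (0.13) and Col2a1 (1.44), and leaving out cells of the mineral genes turned maxillary Col11a2 (-0.68). Papilla-marked cells alone turned mandibular Col2a1 (0.22). Cells without papilla marks turned Tfap2b (0.32 maxillary, 0.68 mandibular) and maxillary Sfrp2 (0.059), Alcam (0.25) and Epha3 (0.14). The stages were compared within each jaw. No test across the jaws was run, because each group is 1 library and the jaws are different tissues.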

Other observations

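Over all genes compared, 4.65% were higher and 1.69% lower at P1. Of 22 genes for collagen folding and crosslinking none passed 2-fold in both jaws (1 was higher with the shared-barcode cells), and Serpinh1, the collagen chaperone, stood at 1101 and 961 CPM in the maxillary and 1143 and 965 CPM in the mandibular molar. None of 9 antigen presentation and interferon genes passed either, with B2m at 137 and 139.6 CPM, then 126 and 144 CPM. Of 12 glycolysis and hypoxia genes 1 was lower, the glucose transporter gene Slc2a1, by -1.08 and -1.39 log2.

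Of 12 glucocorticoid response genes 2 were lower at P1, against 1.69% of all genes compared. Fkbp5, a chaperone partner of the glucocorticoid receptor, stood at 33.3 and 15.6 CPM, then 46.8 and 20.2 CPM, and Zbtb16 at 13.9 and 6.49 CPM (2.68 in the shared-barcode cells), then 21.9 and 8.31 CPM. Tnfrsf11b, the osteoclast inhibitor osteoprotegerin, was higher by 1.77 and 1.40 log2, at 13.95 and 11.3 CPM at P1.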
